A study of Mus musculus with 8 samples.

Results

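The genes followed here belong to the signalling route that runs from the receptor KIT and the receptors of fibroblast growth factors (FGFs) to the kinase ERK. They are Kit, the FGF receptors Fgfr1, Fgfr2 and Fgfr3, the feedback inhibitors Dusp6, Spry2, Spry4 and Spred1, and the ETS transcription factors Etv4 and Etv5. The 10 genes were taken by name, and where a symbol was listed at several loci the locus with the highest mean expression level was used. All 10 genes were found in both tables, among 23634 named genes in the female table and 23360 in the male table.

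RNA-Seq had been carried out on germ cells of E15.5 mouse gonads, and the comparison asked how loss of Snf5, which encodes a core component of the SWI/SNF remodeler of chromatin, altered their transcripts. There were 4 groups of 2 libraries, a control and a Snf5 CKO group for each sex. Snf5 CKO embryos were Snf5 fx/Δ with TNAP-Cre, so that 1 allele was null in every cell of the embryo and the other was removed where the Cre, which is driven from the Alpl locus, had acted in primordial germ cells (PGCs). The control libraries were mixtures of Snf5 fx/+, Snf5 fx/Δ and Snf5 fx/+ with TNAP-Cre embryos, so part of the control cells also carried a null allele or the Cre. All groups carried the Oct4-EGFP transgene, in which the promoter of Oct4 (Pou5f1) drives a fluorescent protein, and the cells were sorted by it. The labels give the strain as C57BL/6, while the methods of the study describe a mixed background. Female libraries and male control libraries came from several embryos each, whereas male Snf5 CKO replicate 1 came from separate sorts of single embryos and replicate 2 from a single embryo. Recombination is incomplete and variable in this model, and a Snf5 CKO library therefore also holds cells that kept Snf5.

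KIT is the receptor of KIT ligand, which PGCs need to survive, migrate and proliferate. KIT and the FGF receptors are receptor tyrosine kinases that switch on RAS, which in turn activates the kinases RAF, MEK and ERK. ERK activity induces transcription of Etv4 and Etv5 and also of its own inhibitors: DUSP6 is a phosphatase that inactivates ERK, and the SPRY and SPRED proteins dampen the pathway upstream of ERK. The level of these transcripts is widely used as a readout of ERK signalling, although ERK phosphorylation itself was not measured in these libraries.

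The values are FPKM as deposited, which are fragments scaled by transcript length and by library. How the libraries were scaled to each other is not given. Each sex was fitted alone with limma on log2(FPKM + 1), and a gene was called where the log2 fold change reached 1 in either direction with a Benjamini-Hochberg adjusted p under 0.05. Fold changes on this scale understate the change of low genes. No total depth can be had from FPKM, but steps among genes under 0.1 FPKM put the libraries between 1.20 and 2.44 times the depth of control replicate 1 of their sex, with 36.4% to 60.0% of such genes on a step. Loci without a gene name took from 5.46% to 42.1% of the FPKM sum of a library. The targeted gene, listed as Smarcb1, was at 23.4 and 22.3 FPKM in female controls against 4.24 and 2.47 in Snf5 CKO females, and at 141 and 167 against 8.73 and 10.1 in males, which gave log2 fold changes of -2.48 (SE 0.24, adjusted p = 0.000269) and -3.90 (SE 0.18, adjusted p = 0.00212). Every library was therefore on the side of its label.

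Most of the genes were higher in Snf5 CKO germ cells: both Snf5 CKO libraries lay above both controls for 8 of the 10 genes in each sex, against 36.4% of tested genes in females and 34.6% in males. In females 6 of the 9 genes tested rose, namely Kit, Fgfr2, Dusp6, Spry2, Etv4 and Etv5, where 17.3% of all 11520 tested genes were called higher. In males 5 of 10 rose, namely Kit, Fgfr2, Fgfr3, Dusp6 and Etv5, where 14.4% of 12269 genes were called higher. By limma 0 of them were called lower in either sex, against 21.6% of genes in females and 17.5% in males. Fgfr3 and Spred1 were lower in females at a limma adjusted p under 0.05 (0.0300 and 0.0197) but did not reach the fold threshold. In males 0 of the 10 genes were lower even at an unadjusted p under 0.05. At that unadjusted level stood 7618 of 11520 genes in females and 6729 of 12269 in males, in either direction. Kit, Fgfr2, Dusp6 and Etv5 rose in both sexes, which is 4 of the 9 genes tested in both, and 6.59% of the 10463 genes tested in both were called higher in each. Over all tested genes the log2 fold change had a median of -0.13 in females and -0.07 in males. With 2 libraries against 2, an exact permutation test of a single gene cannot give a two-sided p below 0.333, and the limma p-values borrow the spread of the other genes and measure only the spread between these libraries. In bulk libraries, fewer cells that express a gene and less RNA per cell cannot be told apart.

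**Figure D1:**
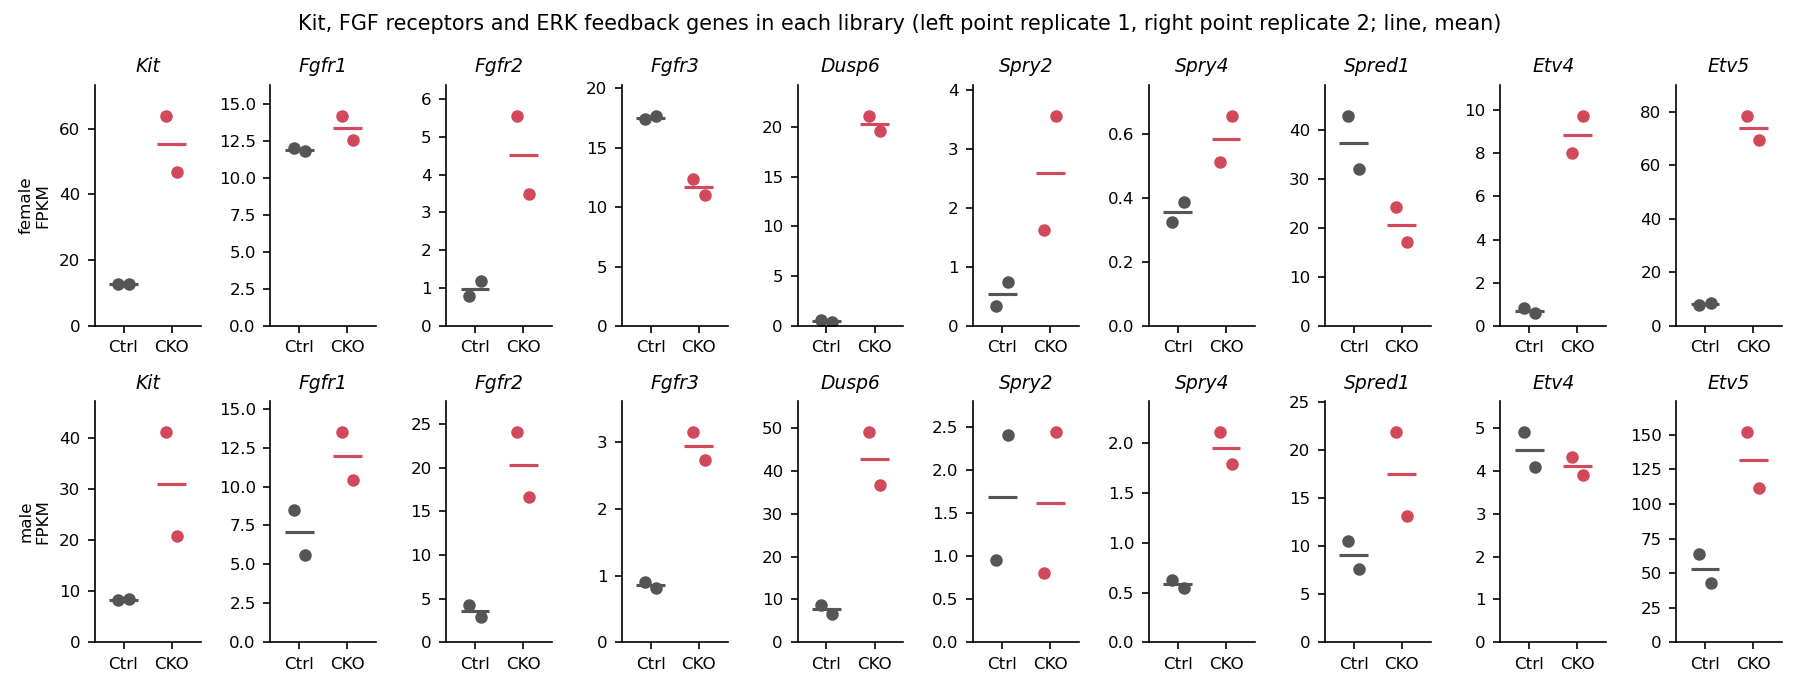
Expression level of each of the 10 genes in every library (vertical axis, FPKM from 0, with its own scale in each panel), female libraries in the upper and male in the lower panels; points are libraries, replicate 1 left and replicate 2 right, and lines are group means. Both Snf5 CKO libraries lay above both controls for 8 genes in females and 8 in males, and the groups overlapped in males for Spry2 and Etv4.

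The 4 genes that rose in both sexes are shown with the 250 bases before their RefSeq start (GRCm38.p6), as a view of the sequence next to the starts of genes that moved together. The windows lie at chr5:75574737-75574986 on the plus strand for Kit, chr7:130266809-130267058 on the minus strand for Fgfr2, chr10:99262981-99263230 on the plus strand for Dusp6 and chr16:22439571-22439820 on the minus strand for Etv5, and each is written 5′ to 3′ along its gene with capitals marking a GC box (GGGCGG on either strand).
Kit: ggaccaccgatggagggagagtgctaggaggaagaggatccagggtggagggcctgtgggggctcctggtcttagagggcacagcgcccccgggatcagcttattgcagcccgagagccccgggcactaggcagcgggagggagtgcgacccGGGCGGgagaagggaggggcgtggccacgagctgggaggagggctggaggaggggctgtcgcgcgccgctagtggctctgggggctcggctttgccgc
Fgfr2: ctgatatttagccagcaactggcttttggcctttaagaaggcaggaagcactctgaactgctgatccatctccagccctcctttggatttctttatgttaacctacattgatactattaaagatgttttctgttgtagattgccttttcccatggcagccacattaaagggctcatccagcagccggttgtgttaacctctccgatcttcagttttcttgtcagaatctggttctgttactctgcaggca
Dusp6: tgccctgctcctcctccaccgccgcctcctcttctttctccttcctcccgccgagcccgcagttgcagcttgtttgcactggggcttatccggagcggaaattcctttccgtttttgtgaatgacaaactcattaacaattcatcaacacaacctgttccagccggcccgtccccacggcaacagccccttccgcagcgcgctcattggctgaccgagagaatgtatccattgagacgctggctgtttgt
Etv5: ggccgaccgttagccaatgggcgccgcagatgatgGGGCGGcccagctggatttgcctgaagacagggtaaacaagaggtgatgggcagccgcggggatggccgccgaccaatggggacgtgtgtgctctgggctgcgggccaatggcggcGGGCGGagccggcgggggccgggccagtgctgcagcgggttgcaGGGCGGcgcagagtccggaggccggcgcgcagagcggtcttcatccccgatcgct
The Kit window held 1 GC box and the Etv5 window 3, while those of Fgfr2 and Dusp6 held 0. Over the 7 genes with an entry in the RefSeq table, 4 windows held a GC box, and so did 32.7% of 32851 windows of the same length. The ETS motif CCGGAAG, the AP-1 motif TGACTCA and the E-box CACGTG were searched on both strands as well, and were found in 0 of the 7 windows, against 6.91%, 4.46% and 6.02% of all windows. Base composition varied among these starts, and G and C made up 70.8% of the Kit window and 71.2% of the Etv5 window, 56.4% of the Dusp6 window and 44% of the Fgfr2 window, beside a median of 52.4% over all windows. The Fgfr2 start is the one that RefSeq and the deposited tables give, but the GENCODE annotation of GRCm38 extends Fgfr2 to position 133123350, and the bases that follow the RefSeq start were found in no GENCODE transcript of Fgfr2, so this window may not lie at the start in use. GENCODE starts Kit at 75574916 and Etv5 at 22439719, and the male locus of Etv5 reaches 22439720. Part of the Kit window and most of the Etv5 window, with its later GC boxes, thus lie within the gene by that annotation. The bases after the RefSeq start of Spred1, whose window is among those with a GC box, were likewise found in no GENCODE transcript of Spred1. Its male locus starts at 117120771, before that window (117120821-117121070). Fgfr1, Etv4 and Spry4 are named only.

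Among the receptors, Kit (chr5:75574987-75656721, mm10) was at 12.8 and 12.7 FPKM in female controls and reached 63.8 and 46.7 FPKM in Snf5 CKO females. The mean was thus 12.7 ± 0.0120 FPKM in controls and 55.3 ± 12.1 FPKM in Snf5 CKO females (SD, n = 2), a 4.34-fold difference. On the log2 scale Kit rose by 2.02 (SE 0.20, adjusted p = 0.000296). In males the control libraries were again close together, at 8.25 and 8.42 FPKM, and those of Snf5 CKO males reached 41.1 and 20.8 FPKM. The male Snf5 CKO libraries differed from each other by 1.98 times, yet both lay above both controls, and the mean of 30.9 ± 14.4 FPKM was 3.71 times the control mean of 8.34 ± 0.123 (log2 fold change 1.70, SE 0.34, adjusted p = 0.0146).

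Fgfr2 (chr7:130162451-130266808), which encodes a receptor for FGFs with isoforms in epithelium and mesenchyme, was low in female controls, at 0.785 and 1.18 FPKM, and was at 5.55 and 3.50 FPKM in Snf5 CKO females (log2 fold change 1.46, SE 0.25, adjusted p = 0.00240). Male controls held it at 4.27 and 2.96 FPKM and Snf5 CKO males at 24.0 and 16.7 FPKM, a 5.63-fold difference of the means (log2 fold change 2.204, SE 0.27, adjusted p = 0.00397). Fgfr2 thus rose in both sexes with no overlap between the groups. Fgfr1 (chr8:25518749-25575718 in the female table), the FGF receptor with the broadest expression, was at 12.02 and 11.8 FPKM in female controls and at 14.2 and 12.6 FPKM in Snf5 CKO females (log2 fold change 0.15, SE 0.18, adjusted p = 0.477). In males it was at 8.49 and 5.62 FPKM in controls and at 13.5 and 10.4 FPKM in Snf5 CKO males (log2 fold change 0.70, SE 0.26, adjusted p = 0.0816). The groups did not overlap in either sex, but neither change passed the test. The antisense gene Gm16159 lies within Fgfr1, and reads of both cannot be told apart because the library kit does not mark the strand.

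Fgfr3 (chr5:33721724-33737068) took opposite directions in the sexes. Female controls were at 17.4 and 17.7 FPKM and Snf5 CKO females at 12.4 and 11.0 FPKM, a log2 fold change of -0.55 (SE 0.17, adjusted p = 0.0300) that stayed under the threshold of fold. In males Fgfr3 was low, at 0.900 and 0.822 FPKM in controls and 3.15 and 2.74 FPKM in Snf5 CKO males, and it rose by 1.08 (SE 0.17, adjusted p = 0.00750). The male change was just past the fold threshold, and rescaling the libraries to the same sum over named loci brought it to 0.98. The authors' software marked the estimate in female control replicate 2 as failed, and the start of Fgfr3 is overlapped by G630022F23Rik on the other strand.

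Among the feedback inhibitors, Dusp6 (chr10:99263231-99267489) had the largest log2 fold change of the tested genes in both sexes, although by the ratio of the means Fgfr2 was level with it in males (5.63 and 5.58). It was nearly silent in female controls, at 0.568 and 0.400 FPKM, and reached 21.1 and 19.6 FPKM in Snf5 CKO females. The means of 0.484 ± 0.119 and 20.3 ± 1.07 FPKM (SD, n = 2) differ 42.0-fold, and the log2 fold change was 3.85 (SE 0.19, adjusted p = 9.57e-05). Male controls expressed Dusp6 at 8.76 and 6.58 FPKM and Snf5 CKO males at 48.9 and 36.7 FPKM, a 5.58-fold difference (log2 fold change 2.33, SE 0.24, adjusted p = 0.00281). Dusp6 thus rose in both sexes, from a control level that was low in females and intermediate in males.

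Spry2 (chr14:105891771-105896819 in the female table), a Sprouty inhibitor, was at 0.345 and 0.749 FPKM in female controls and at 1.63 and 3.57 FPKM in Snf5 CKO females, and it rose by 1.17 (SE 0.30, adjusted p = 0.0133). The fold fell under the threshold without female control replicate 1 (0.99) and without female Snf5 CKO replicate 2 (0.78). In males the groups overlapped, with 0.956 and 2.41 FPKM in controls and 0.808 and 2.44 FPKM in Snf5 CKO males (log2 fold change -0.05, SE 0.42, adjusted p = 0.930). In every group replicate 2 was above replicate 1, by 2.17 to 3.02 times. Spry4 (chr18:38586265-38601268 in the female table), another Sprouty inhibitor, was the lowest of the 10 genes in both groups of control libraries. It was at 0.324 and 0.388 FPKM in female controls and 0.514 and 0.657 FPKM in Snf5 CKO females, below the mean of 1 FPKM set for testing. In males it went from 0.627 and 0.543 FPKM to 2.105 and 1.79 FPKM, a 3.33-fold difference of the means without overlap, but the log2 fold change of 0.89 (SE 0.17, adjusted p = 0.0116) missed the threshold of fold and passed it with a pseudocount of 0.1 (1.58). The male locus of Spry4 also spans Fgf1 and part of Arhgap26, so the value of Spry4 may include reads of other genes. Fgf1 was listed separately with the same bounds, at 0.0563 and 0.0238 FPKM in male controls and 0.0279 and 0.00764 FPKM in Snf5 CKO males.

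Spred1 (chr2:117121071-117182277 in the female table), which inhibits RAS together with neurofibromin, was the most abundant of the 10 genes in female controls, at 42.8 and 31.9 FPKM, and was at 24.2 and 17.1 FPKM in Snf5 CKO females. Its log2 fold change of -0.83 (SE 0.23, adjusted p = 0.0197) was not called, and it passed the threshold without female control replicate 2 (-1.04) or without female Snf5 CKO replicate 1 (-1.07). Male controls were at 10.5 and 7.66 FPKM and Snf5 CKO males at 21.8 and 13.1 FPKM (log2 fold change 0.85, SE 0.30, adjusted p = 0.0735), and without male Snf5 CKO replicate 2 this value was 1.19 and was called. Spred1 was thus lower in both Snf5 CKO libraries of females and higher in both of males than in the controls. Of all tested genes, 45.1% were likewise lower in both female libraries and 34.6% higher in both male libraries.

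Of the ETS factors, Etv4 rose in females and Etv5 in both sexes. Etv4 (chr11:101769742-101785310) was at 0.824 and 0.598 FPKM in female controls and at 7.999 and 9.73 FPKM in Snf5 CKO females, a 12.5-fold difference (log2 fold change 2.52, SE 0.20, adjusted p = 0.000154). In males the groups overlapped, with 4.89 and 4.09 FPKM in controls and 4.31 and 3.90 FPKM in Snf5 CKO males (log2 fold change -0.10, SE 0.19, adjusted p = 0.690). Etv5 (chr16:22381313-22439570 in the female table), which is known for its part in the renewal of spermatogonial stem cells, went from 7.75 and 8.54 FPKM in female controls to 78.5 and 69.5 FPKM in Snf5 CKO females. The female means differ 9.08-fold (log2 fold change 3.03, SE 0.17, adjusted p = 9.57e-05). In males Etv5 was at 64.0 and 42.7 FPKM in controls and at 152 and 111 FPKM in Snf5 CKO males, a 2.47-fold difference (log2 fold change 1.30, SE 0.28, adjusted p = 0.0175). The male call of Etv5 was lost without male control replicate 2 (log2 fold change 1.01, adjusted p = 0.0704, with adjusted p between 6.07e-05 and 0.0704 over its alternatives).

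**Figure D2:**
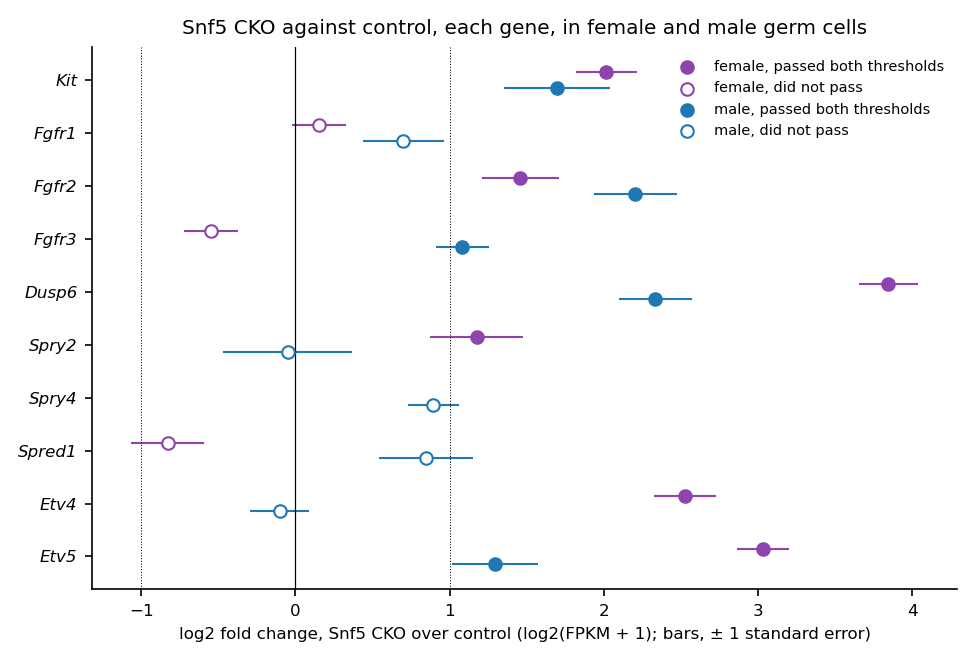
Log2 fold change of Snf5 CKO over control for each gene (horizontal axis, log2(FPKM + 1) scale), female in purple and male in blue; bars are ± 1 standard error, filled points passed both thresholds, dotted lines mark a log2 fold change of -1 and 1, and female Spry4 was not tested. Dusp6 lay farthest to the right in both sexes (3.85 and 2.33), and Etv4 and Etv5 lay farther right in females (2.52 and 3.03) than in males (-0.10 and 1.30).

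The order of the levels, which FPKM allows because it is per length, changed with the genotype. In female controls Spred1 (37.4 ± 7.68 FPKM) was followed by Fgfr3 (17.5 ± 0.196), Kit, Fgfr1 (11.9 ± 0.123) and Etv5 (8.15 ± 0.560), with no overlap between neighbours. Fgfr2, Etv4, Spry2 and Dusp6 followed below 1.2 FPKM in every female control library and overlapped from each to the next, and Spry4 was lowest. In Snf5 CKO females Etv5 (74.0 ± 6.39 FPKM) and Kit led, then Spred1 (20.7 ± 5.06) and Dusp6, which overlapped, then Fgfr1, Fgfr3, Etv4, and then Fgfr2 and Spry2, which overlapped, above Spry4.

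In males Etv5 led in controls (53.4 ± 15.0 FPKM) and in Snf5 CKO libraries (132 ± 28.5 FPKM). Spred1, Kit, Dusp6 and Fgfr1 came next in male controls and overlapped from each to the next, followed by Etv4 and Fgfr2, which overlapped, and by Spry2, Fgfr3 and Spry4. In Snf5 CKO males Dusp6, Kit, Fgfr2, Spred1 and Fgfr1 overlapped from each to the next, and below them stood Etv4, Fgfr3, and then Spry4 and Spry2, which overlapped. The tables of the sexes were made in separate runs, so levels were compared within a sex and only the genotype differences were compared between the sexes.

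The genotype difference itself differed between the sexes for 5 of the 9 genes tested, by a contrast of the male and female log2 fold changes over the 8 libraries, and 45.3% of the 10463 genes tested differed by the same rule (adjusted p under 0.05). The male minus female difference was -2.63 for Etv4 (SE 0.25, adjusted p = 0.000410), -1.74 for Etv5 (SE 0.33, adjusted p = 0.00491) and -1.51 for Dusp6 (SE 0.29, adjusted p = 0.00530). The log2 fold changes of these genes were thus larger in females, which does not hold for every difference in FPKM. The male minus female difference was 1.63 for Fgfr3 (SE 0.22, adjusted p = 0.00134) and 1.68 for Spred1 (SE 0.42, adjusted p = 0.0147), which had opposite signs in the sexes. Kit (-0.32, SE 0.43, adjusted p = 0.571), Fgfr1 (0.55, SE 0.31, adjusted p = 0.184), Fgfr2 (0.74, SE 0.39, adjusted p = 0.154) and Spry2 (-1.23, SE 0.59, adjusted p = 0.126) were not shown to differ. With the replicate number as a block, the differences of Fgfr1 (adjusted p = 0.0177) and Spry2 (adjusted p = 0.00275) passed as well. The difference of Spred1 was lost without female control replicate 1 (1.47, adjusted p = 0.0578) and without female Snf5 CKO replicate 2 (1.44, adjusted p = 0.0504), and over its alternatives the adjusted p ran from 7.33e-05 to 0.132. With libraries rescaled to the same sum the difference of Dusp6 was -1.70 (adjusted p = 0.0526, with a range of 0.000135 to 0.0526).

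**Figure D3:**
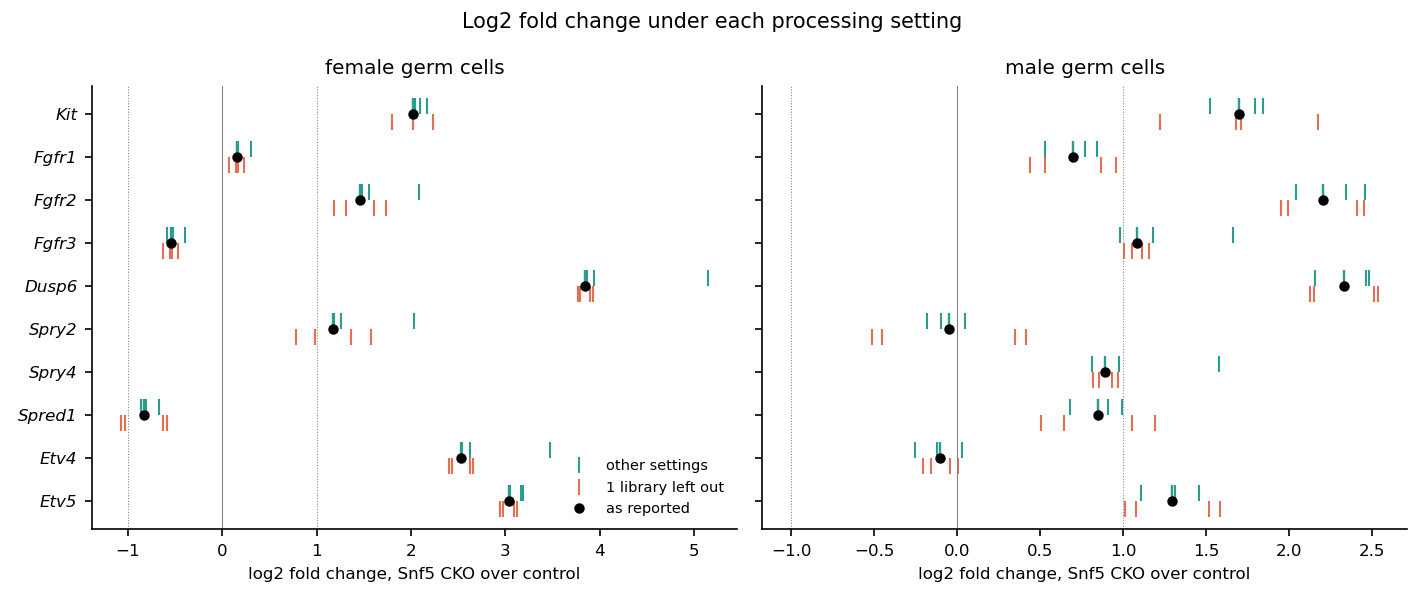
Log2 fold change of each gene (horizontal axis, log2 scale) as reported (black points), with the other processing settings (green ticks) and with 1 library left out (orange ticks), females left and males right; dotted lines mark -1 and 1. The values of Kit, Fgfr2, Dusp6 and Etv5 stayed above 1 in both sexes under every setting drawn, while male Spry2 ran from -0.51 to 0.41.

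The genes whose pattern over the 8 libraries was nearest to that of Kit were found from log2(FPKM + 1) minus the mean of the controls of the same sex, by the root mean square difference from Kit among 10462 genes. They were Fzd7 (0.180), a receptor of Wnt proteins, Ago2 (0.197), the slicing Argonaute of RNA interference, Mcm2 (0.201), a subunit of the replicative helicase, Vamp2 (0.207), a vesicle fusion protein, and Cog1 (0.208), a subunit of a Golgi tethering complex. Fzd7, for example, was at 4.04 and 3.57 FPKM in female controls and 17.1 and 15.2 FPKM in Snf5 CKO females, and at 4.56 and 3.88 FPKM against 18.9 and 13.4 FPKM in males. Of the other genes of the pathway followed here, Fgfr2 was nearest to Kit, at rank 171 (0.416), and Etv5 was at rank 509 (0.585). Fgfr3 and Spred1 were farthest, at ranks 4160 and 5389.

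Beyond these 10 genes, 141 further genes of the pathway were read from 8 lists. Of 88 tested in females 28 rose and 15 fell, where 17.3% of all tested genes were called higher and 21.6% lower. Of 98 tested in males 23 rose and 15 fell, where 14.4% of all tested genes were called higher and 17.5% lower. The shares that fell were thus no larger than those over all genes, and the same shares serve for each list. Among the ligands, Fgf17 and Fgf8, which are closely related FGFs, rose in both sexes. Fgf17 went from 0.240 and 0.568 FPKM to 9.04 and 12.3 FPKM in females (log2 fold change 3.05, SE 0.23, adjusted p = 0.000138), and in males it was listed at 0 and 0.194 FPKM in controls and at 17.2 and 17.5 FPKM in Snf5 CKO libraries (log2 fold change 4.07, SE 0.19, adjusted p = 0.00212). Fgf8 was at 0.694 and 0.560 FPKM against 4.80 and 5.32 FPKM in females, and at 3.93 and 7.52 FPKM against 16.2 and 20.7 FPKM in males (log2 fold changes 1.90 and 1.58). Both FGFs were thus higher in each Snf5 CKO library than in any control of the same sex. Kitl, the KIT ligand, rose in males from 0.831 and 0.436 FPKM to 2.99 and 2.65 FPKM (log2 fold change 1.23, SE 0.20, adjusted p = 0.00791), and in females it had a log2 fold change of 0.84 (SE 0.20, adjusted p = 0.00930), with 0.802 and 1.09 FPKM against 2.71 and 2.26 FPKM. In the lower direction were Fgf11 in females (-2.01), an FGF that stays inside the cell, and the endocrine factor Fgf21 in males (-1.49). Fgf9, which acts on male germ cells, was below the level set for testing, at 1.87 and 0.710 FPKM against 0.104 and 0.124 FPKM in females and at 0.243 and 0.283 FPKM against 0.202 and 0.165 FPKM in males. In all, 2 of 5 tested genes of the ligand list rose and 1 fell in females, and 3 of 5 rose and 1 fell in males, with medians of 0.84 and 1.23. The 1 that fell in females was Fgf11, which stays inside the cell. The counts and medians of this list thus hold at least 1 gene that its name does not describe.

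The other feedback inhibitors and the other ERK response genes had the highest list medians in females, and in males the ligands stood level with the feedback inhibitors. Of 11 further feedback inhibitors tested, 7 rose and 1 fell in females (median log2 fold change 1.30), and 6 rose and 1 fell in males (median 1.23). The ERK phosphatase gene Dusp4 went from 0.874 and 1.06 FPKM to 22.0 and 11.4 FPKM in females (3.10) and from 4.55 and 2.45 FPKM to 42.4 and 23.5 FPKM in males (2.89). Spry1, a further Sprouty gene, rose in males from 4.63 and 4.96 FPKM to 19.2 and 19.7 FPKM (1.82) and in females by 1.20. Spred2 rose by 1.98 in females and 1.75 in males, and Dusp1 by 2.03 and 1.32. Lgals1 was at 37.3 and 82.8 FPKM in female controls and 597 and 954 FPKM in Snf5 CKO females (3.74), and rose by 1.62 in males. It encodes the lectin galectin-1, which is known to bind active HRAS and not as a feedback inhibitor, so the counts of this list hold a gene that its name does not describe. Dusp9, another ERK phosphatase gene, fell in both sexes, from 56.2 and 68.3 FPKM to 30.02 and 25.5 FPKM in females (-1.13) and from 32.2 and 31.5 FPKM to 3.71 and 3.37 FPKM in males (-2.86). Not every inhibitor of ERK therefore moved as Dusp6 did.

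Of the ERK response genes, 7 of 13 rose in females (median 1.27) and 8 of 16 in males (median 1.08), and the others were not called. The immediate early genes Ier2 and Junb rose in both sexes, by 2.94 and 2.32 in females and by 2.88 and 3.42 in males. Mycn, a transcription factor of growing cells, rose in females from 6.65 and 11.3 FPKM to 142 and 138 FPKM (3.86), and in males by 2.70. Fos rose in males from 1.31 and 0.943 FPKM to 10.5 and 15.9 FPKM (2.72), and in females Snf5 CKO replicate 1 alone stood out, with 7.41 and 7.66 FPKM in controls and 27.2 and 8.19 FPKM in Snf5 CKO libraries (0.92, adjusted p = 0.133).

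The lists of genes between receptor and ERK had medians between -0.12 and 0.18. Of the adaptors and regulators of the RAS cycle, 4 of 19 rose and 6 fell in females (median -0.11), and 2 of 21 fell and the other 19 were not called in males (median -0.12). Ptpn6, a phosphatase that acts on KIT, rose in females from 4.06 and 5.47 FPKM to 30.4 and 34.9 FPKM (2.55), and so did the docking protein gene Gab1 (1.87) and the exchange factor gene Rasgrp2 (1.47). Nf1, the neurofibromin gene, fell in females from 8.18 and 4.64 FPKM to 1.42 and 0.963 FPKM (-1.72), and the adaptor gene Grb10 (-1.83) and the RAS inhibitor gene Rasal2 (-1.71) fell as well. In males the adaptor gene Grb7 fell from 7.243 and 7.0001 FPKM to 0.716 and 0.454 FPKM (-2.36), and the exchange factor gene Rasgrp1 by 1.16.

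Of the RAS to ERK kinase cascade, 4 of 16 rose in females (median 0.18), and 1 of 18 rose and 1 fell in males (median 0.08). Mapk3, which encodes ERK1, took opposite directions: it rose in females from 14.2 and 16.2 FPKM to 34.8 and 37.9 FPKM (1.21, adjusted p = 0.00114) and fell in males from 146 and 162 FPKM to 43.0 and 40.6 FPKM (-1.86, adjusted p = 0.00252). Rras (2.47) and Rras2 (1.06), relatives of RAS, rose in females, and Map2k1, which encodes MEK1, rose in males from 17.9 and 21.1 FPKM to 42.4 and 42.7 FPKM (1.09).

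In the PI3K and AKT arm, which KIT and FGF receptors also feed, 1 of 14 genes rose and 4 fell in females (median -0.62), and 1 of 13 rose and 4 fell in males (median -0.24). The gene that rose was Akt1 in both sexes, from 18.8 and 18.1 FPKM to 91.9 and 79.5 FPKM in females (2.15) and from 14.4 and 11.96 FPKM to 56.6 and 48.5 FPKM in males (1.92). Pik3ca, the catalytic subunit of PI3K, fell in both sexes (-1.18 and -1.25). Tsc1 fell in both as well (-1.17 and -1.10), while Pdpk1 (-1.92) fell in females and Mtor (-1.82) in males. Over all tested genes 21.6% were called lower in females and 17.5% in males.

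Of the other receptor tyrosine kinases, 3 of 9 rose and 3 fell in females (median 0.19), and 4 of 13 rose and 6 fell in males (median 0.54), beside 17.3% higher and 21.6% lower over all genes in females and 14.4% and 17.5% in males. Ephb4 (2.80), Erbb3 (2.30) and Epha2 (1.499) rose in females, Epha2 also in males (1.04), and Insr (1.54), Axl (1.23) and Erbb2 (1.20) rose in males. Ret, the receptor of the GDNF family, fell in both sexes (-1.26 and -2.31), so a rise like that of Kit was not shared by every receptor gene. Igf1r fell in both as well (-1.45 and -1.62), Tyro3 (-1.33) fell in females, and Ddr1 (-2.14) and Flt1 (-1.63) fell in males. Of the 9 other FGF receptor and coreceptor genes only 1 reached the level set for testing in each sex, and it was called in neither.

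**Figure D4:**
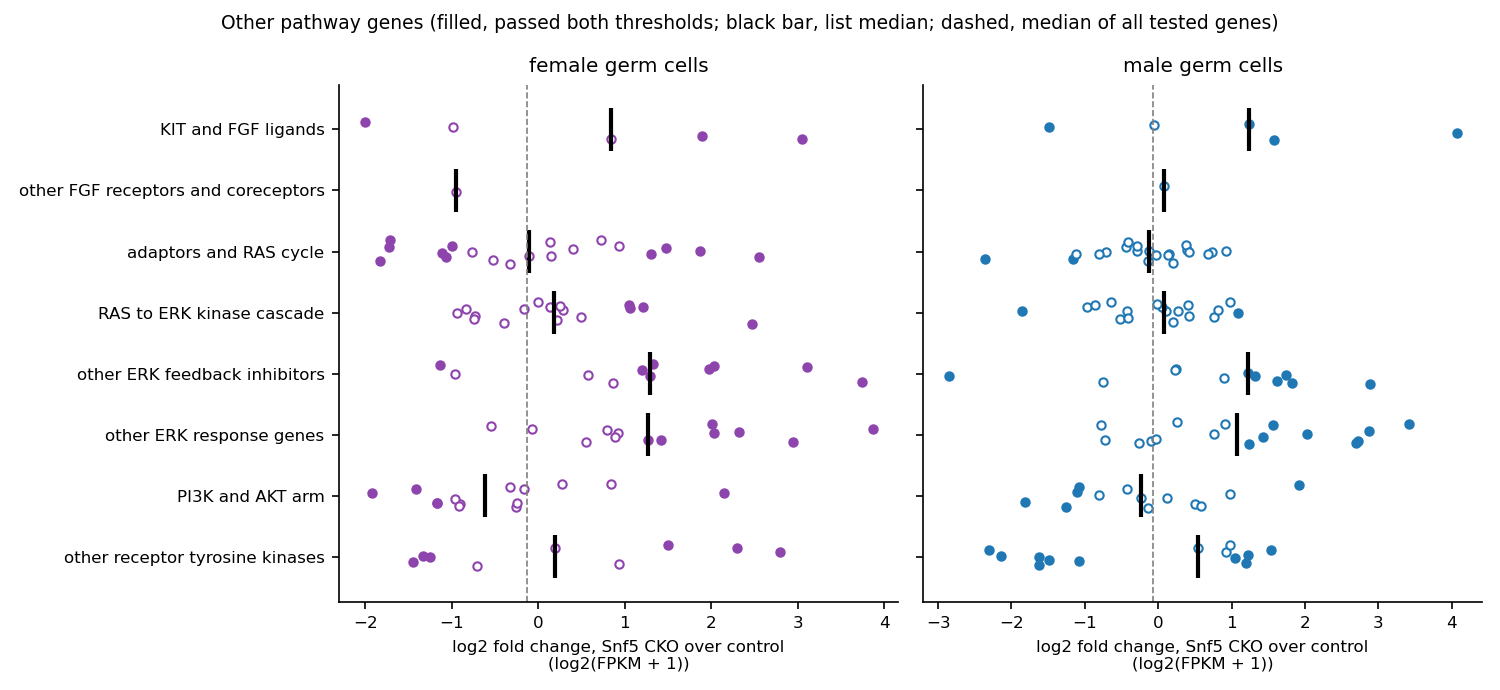
Log2 fold changes of the further pathway genes by list (horizontal axis, log2(FPKM + 1) scale), females left and males right; points are genes, filled where both thresholds were passed, black bars are list medians and the dashed line is the median of all tested genes (-0.13 and -0.07). The medians of the other feedback inhibitors (1.30 and 1.23), of the other ERK response genes (1.27 and 1.08) and of the ligands (0.84 and 1.23) lay to the right in both sexes.

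Markers of germ cells and of other gonadal cells were read beside these values. Ddx4, the mouse vasa homolog, was at 363 and 296 FPKM in female controls against 249 and 203 FPKM in Snf5 CKO females, and at 565 and 458 FPKM against 300 and 237 FPKM in males, and it was called in neither sex. Pou5f1, whose promoter drives the reporter used for sorting, rose with Kit in females, from 8.63 and 16.7 FPKM to 295 and 333 FPKM (log2 fold change 4.59), and was at 399 and 436 FPKM against 620 and 648 FPKM in males (not called). Of the 8 germ cell markers 4 rose and 2 fell in females (summed level 1872 and 1913 FPKM in controls, 2938 and 3133 in Snf5 CKO libraries), and 4 fell and the other 4 were not called in males (5130 and 5543 against 4471 and 5063). The median log2 fold change of these markers was 1.21 in females and -1.36 in males, where the summed level changed less because abundant genes weigh most in it. The part of these markers in the values of the 10 genes was not tested.

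In males the markers of Sertoli cells, the somatic cells that enclose germ cells in the testis, moved in the same direction as Kit, Fgfr2, Dusp6, Etv5 and Kitl. All 8 tested of 9 rose, with a median log2 fold change of 2.26, and their summed level was 146 and 112 FPKM in controls and 632 and 933 FPKM in Snf5 CKO males. Sox9 was at 2.98 and 2.51 FPKM against 11.1 and 11.4 FPKM, and Amh at 17.3 and 16.5 FPKM against 69.7 and 120 FPKM, and Fgf9 was the marker not tested. Their part in the male values was not tested. The other somatic lists went the other way or overlapped in males: 3 of 5 tested Leydig cell markers (86.1 and 58.3 against 19.2 and 15.1 FPKM), 3 of 4 tested stromal markers (22.1 and 11.3 against 4.63 and 3.06 FPKM) and 1 of 2 tested pre-granulosa markers (10.5 and 11.6 against 5.93 and 7.11 FPKM) fell, and the 3 tested blood and endothelial markers were not called (39.9 and 59.7 against 40.3 and 42.1 FPKM).

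In females the summed somatic lists were at or below 25.8 FPKM in every library, apart from the blood and endothelial list. The summed Sertoli list was at 7.08 and 8.67 FPKM in controls and 17.1 and 16.4 FPKM in Snf5 CKO females, with 1 of 3 tested markers higher, Sox9 between 0.0452 and 0.132 FPKM, Amh between 0.0125 and 0.123 FPKM, and Dhh and Cst9 listed at 0 in both controls. Of 6 tested markers of pre-granulosa cells, the somatic cells around female germ cells, 3 rose and 1 fell (9.34 and 11.5 against 25.8 and 22.4 FPKM), and Foxl2 was at 0.328 and 1.13 FPKM against 1.67 and 2.07 FPKM. Of 2 tested Leydig markers 1 rose (4.74 and 4.94 against 12.04 and 11.9 FPKM), of 2 tested stromal markers 1 fell (13.5 and 6.27 against 4.08 and 5.26 FPKM), and of 2 tested blood and endothelial markers Pecam1 rose (sum 13.6 and 45.1 against 26.9 and 48.7 FPKM). The part of these lists in the female values was not tested.

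**Figure D5:**
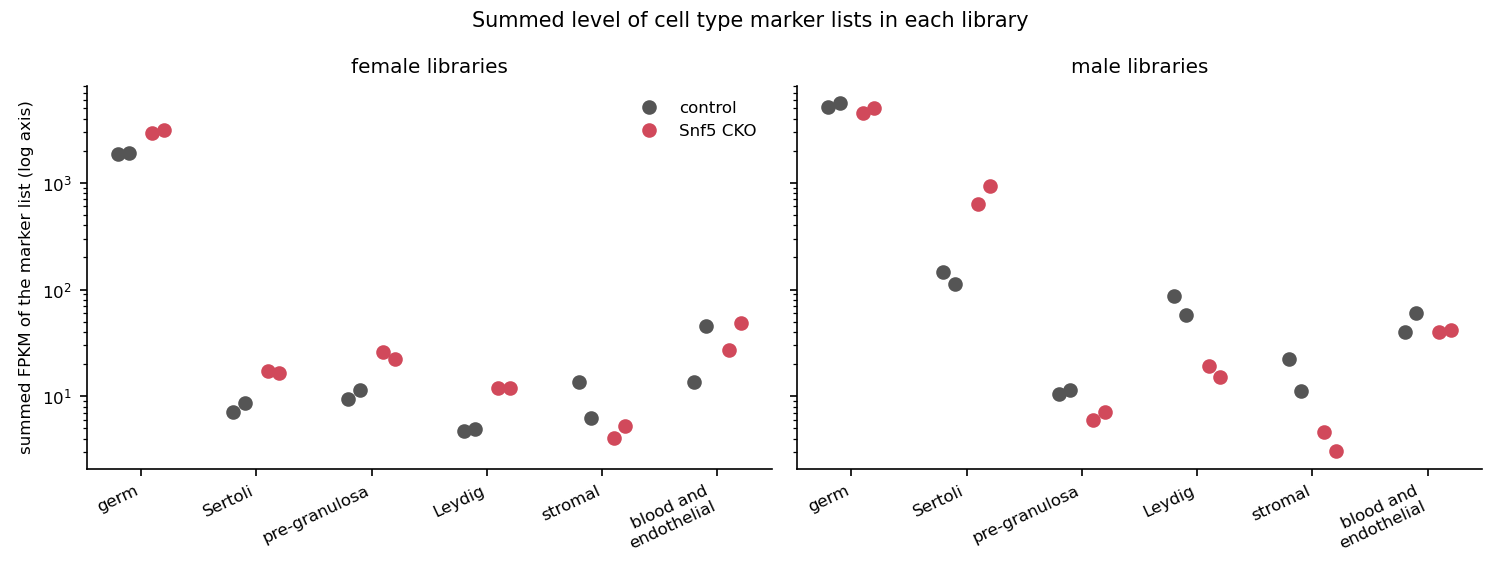
Summed FPKM of each cell type marker list in every library (vertical log axis), females left and males right, controls in grey and Snf5 CKO in red. The Sertoli list of the males went from 146 and 112 FPKM to 632 and 933 FPKM, and in females it stayed at or below 17.1 FPKM.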

How the data were processed

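Germ cells of E15.5 gonads had been sorted by Oct4-EGFP, cDNA was amplified with the SMART-Seq v4 kit and Nextera XT libraries were sequenced. The authors mapped the reads to UCSC mm10 and estimated gene levels with 1 run per sex; the submitters' processing notes name TopHat2 2.2.1 and Cuffdiff 2.1.1, while the annotation version and the scaling between libraries are not given in the sources used here. The deposited values are FPKM per locus and library, with a status of each estimate; the confidence bounds, in 16 columns, were left aside. The tables hold 29018 loci (female) and 30216 (male), of which 4737 and 6272 without a gene name were left out; 1 was added to each start, which the tables count from 0.

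Each sex was fitted with limma 3.58.1 (lmFit, eBayes with trend) in R 4.3.3 on log2(FPKM + 1) for genes whose 4 libraries averaged 1 FPKM or more, with Benjamini-Hochberg adjustment over all genes tested. The difference between the sexes was the contrast of the 2 genotype differences over the 8 libraries, called at an adjusted p under 0.05. The script was tested on simulated data. At an unadjusted p under 0.05 there were 7618 female and 6729 male genes, and 5571 for the difference. No label states a batch, and the replicate numbers were assumed to mark one, since in both sexes the labels name the raw files of replicates 1 and 2 in different styles. The deviation of replicate 2 from replicate 1 in controls and in Snf5 CKO libraries correlated across genes (0.500 in females, 0.607 in males). The estimated depth of replicate 2 was also above that of replicate 1 in every group, and its part in this correlation was not tested.

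The 10 genes, the pathway and marker lists and the alternatives were chosen with earlier results of these data known. From each pathway list the text names at most the 3 called genes with the largest change in each direction, and Kitl, Fgf9, Mapk3 and Smarcb1 in any case, and some genes that this rule selects are not reported here; female Fos, values in the other sex beside a named gene, and the marker genes were chosen after their values were seen. Promoter sequences are those of RefSeq, of which 7 of the 10 genes had one. Plots were made in Python 3.11.15 (matplotlib 3.10.9).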

Additional observations from a re-analysis of the deposited data

Results flagged for a closer look

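The effect of Snf5 CKO differed between the sexes, by the contrast of the male and female log2 fold changes, for Etv4 (-2.63), Etv5 (-1.74), Dusp6 (-1.51), Fgfr3 (1.63) and Spred1 (1.68), given as male minus female. Etv4 rose in females and its groups overlapped in males, and Etv5 and Dusp6 rose in both sexes, with larger log2 fold changes in females. Fgfr3 and Spred1 were lower in both Snf5 CKO libraries of females and higher in both of males. Of all tested genes, 45.1% were lower in both female libraries and 34.6% higher in both male libraries. The share of all tested genes whose effect differed between the sexes by the same contrast was 45.3%.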

How the results depend on the processing

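Of the log2 fold changes and differences of the single genes, 339 recomputed values kept their direction and their call, which rests on fold and adjusted p together within a sex, so that an uncalled value could still cross 1 of the thresholds. Of the others, 8 lost their call, 6 gained one and 6 changed sign. The last were values near 0 and none had been called: male Spry2 was 0.0445 with median-of-ratios rescaling and between -0.51 and 0.41 with 1 library left out, male Etv4 was 0.0282 and between -0.21 and 0.0021, and the difference of Kit between the sexes was between -0.80 and 0.16. With a mean of at least 5 FPKM, 3 genes were called higher in females, of 6 tested, and 3 differed between the sexes, of 5 tested, since fewer genes entered. With the same sum over named loci, 3 differed between the sexes, and the cause was not tested. With 1 library left out, 0 to 1 genes were called lower in females, which was Spred1. Rescaling moved the median of all genes by 0.15 in each sex (median of ratios) and by -0.17 in males (same sum). The same sum took the share of male calls that were higher from 45.1% to 34.3%, and that of differences of at least 1 in size from 51.6% to 37.1%. With the replicate block, which the pairing of the numbers allows, 6 genes were called higher in females, 5 in males and 7 differed between the sexes, and apart from Fgfr1 and Spry2 in that contrast it changed no call of the 10 genes. With 2 libraries a group and an unknown depth, differences of low genes such as Spry4 may escape the test.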
